A study of Mus musculus with 12 samples.

Results

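The genes described here are 9 genes of retinoid transport, binding, synthesis, breakdown and response, chosen by symbol from a table of 18505 genes measured in mouse back skin. They are Rbp4, Stra6, Crabp1, Crabp2, Dhrs9, Aldh1a1, Aldh1a3, Cyp26b1 and Rarg. All 9 symbols were found in the table, and all 9 passed the filter on low values that left 15288 genes to be tested. The rule names the genes by symbol and uses no measured value, although it was written with earlier results from the same samples known.

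RNA-seq was done on the back skin of male wild-type BALB/c mice, 5 to 6 weeks old, shaved before treatment and sampled on day 10. The skin of the 4 control samples had been coated with petroleum jelly, as the methods of the study state. The 4 IMQ + NS samples came from mice given imiquimod (IMQ) cream for 6 h each day, which induces psoriasis-like lesions, and then a cover of saline (NS). The 4 IMQ + BZLF samples came from mice given the same cream and then a cover of Banzhilian formula (BZLF), a mixture of traditional Chinese medicinal materials, at a dose that is not stated for the sequenced samples. The lesion in both IMQ groups is a chemically induced model in which the cream was still being applied while the covers were. The methods describe gauze and a polyurethane film over both covers, and no such dressing for control skin. Cream and dressing therefore cannot be told apart in a comparison with control skin. Every value is a level in whole skin, where fewer cells of a type and less RNA per cell cannot be told apart.

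Retinol travels in plasma bound to the carrier encoded by Rbp4 and can enter cells through the receptor encoded by Stra6. Short-chain dehydrogenases such as Dhrs9 oxidize retinol to retinaldehyde, the Aldh1a enzymes oxidize retinaldehyde to retinoic acid, and the Cyp26 enzymes break retinoic acid down. Retinoic acid is bound in the cytosol by the Crabp proteins and acts in the nucleus through receptors, of which Rarg encodes the main one of the epidermis. In skin, retinoic acid is known for its control of keratinocyte growth, differentiation, sebaceous glands and hair follicles.

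Of the 12 samples, control replicate 2 stood apart from the other control samples. Levels are given in FPKM (fragments for each kilobase of a transcript, corrected for sequencing depth). Over genes with a mean of at least 1 FPKM, control replicate 2 correlated with the other control samples at between 0.928 and 0.947. Those samples correlated with each other at between 0.983 and 0.990. In control replicate 2 the summed level of 10 hair shaft and root sheath markers was 1840 FPKM. It was 24.6 to 65.2 FPKM in the other 3 control samples. The summed level of 7 proliferation genes was 159 FPKM in control replicate 2, against at most 27.2 FPKM in the others. The differences of the 9 genes from control skin, their family shares and the counts of pathway genes called against control skin are therefore also given without it. The FPKM values of a sample summed to between 444660 and 506622, and between 16649 and 16941 genes had a value above 0. Read counts were not analysed here, so the counting error of single values is unknown, and the precision is that of 4 samples per group.

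In the comparison of IMQ + NS with control skin, a gene was called changed when limma's adjusted p was below 0.05 and the fold change exceeded 2, and a gene is said to have risen or fallen when the adjusted p alone was below 0.05. Of the 9 retinoid genes, 5 were called changed, 3 of them higher and 2 lower, while 22.4% of all genes tested were called in this comparison, 11.4% higher and 11.0% lower. The called genes were Stra6, Dhrs9 and Crabp2, which rose, and Aldh1a1 and Rbp4, which fell. A further 2 genes, Crabp1 and Rarg, rose by less than 2-fold, so that 7 of the 9 passed the test of the adjusted p, as did 56.1% of all genes tested. For the same 7 genes the 4 IMQ + NS and the 4 control samples did not overlap, which held for 49.4% of all genes tested, 23.7% with the lesions higher and 25.7% with them lower.

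Between the IMQ groups, IMQ + BZLF against IMQ + NS, 2 of the 9 genes were called, Aldh1a1 higher and Crabp1 lower, against 2.52% of all genes tested, 0.321% higher and 2.20% lower. Rbp4 rose and Crabp2 fell by less than 2-fold, so that 4 of the 9 passed the adjusted p, as did 6.45% of all genes tested, 1.28% higher and 5.17% lower. These 4 genes were also the ones whose groups did not overlap, which held for 15.2% of all genes tested, 4.24% higher and 10.9% lower. Against control skin, IMQ + BZLF skin had 4 of the 9 genes called, Stra6 and Dhrs9 higher and Aldh1a1 and Rbp4 lower, where 19.7% of all genes were called, 9.65% higher and 10.1% lower. By the adjusted p alone 4 genes were higher and 4 lower, against 23.8% and 29.2% of all genes tested, 53.0% in both directions. The groups did not overlap for 7 genes, 4 higher and 3 lower, against 47.5% of all genes tested, 19.4% higher and 28.1% lower. The 3 comparisons share samples and are not independent of each other.

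**Figure D1:**
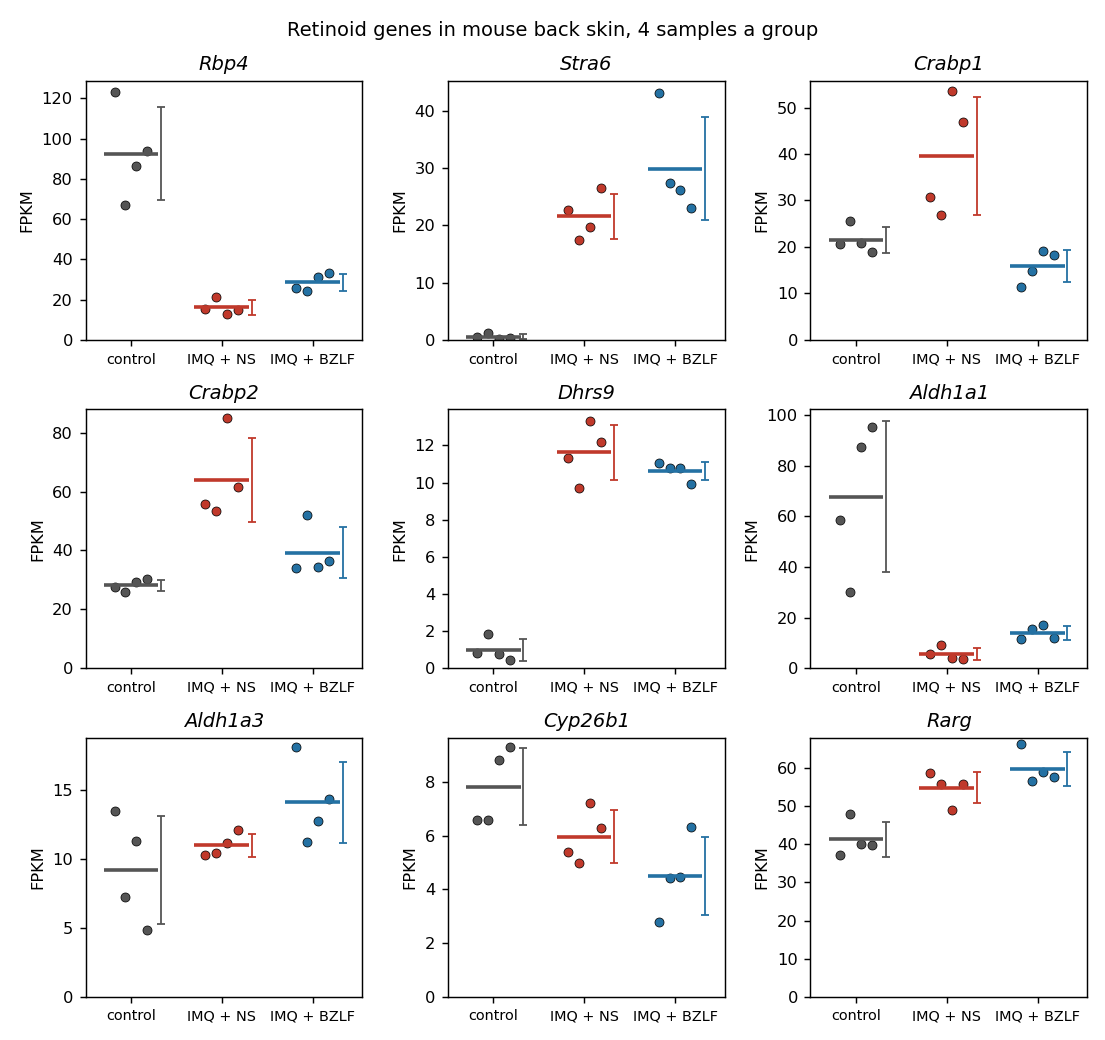
FPKM of each of the 9 retinoid genes (vertical axes, each starting at 0) in the 4 samples of each group. Points are samples in order of replicate number, horizontal lines are group means and the bars beside them are 1 SD. Stra6 and Dhrs9 lie near 0 in control skin and far above it in both IMQ groups, Rbp4 and Aldh1a1 show the opposite arrangement, and Crabp1 and Crabp2 are highest in the IMQ + NS samples.

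Letters upstream of the start sites are shown for the 4 genes with the largest differences between lesional and control skin, Stra6, Dhrs9, Aldh1a1 and Rbp4. The sequences are from RefSeq (GRCm38.p6), give the 250 bases before 1 annotated start site of each gene, 5′ to 3′ on the strand of the gene, and end at the base before the start. Capitals mark matches on either strand to the retinoic acid receptor half-site AGGTCA and its variants AGTTCA and also GGGTCA, to a TATA box written TATAAA, to an AP-1 site written TGACTCA and to a GC box written GGGCGG, and such a match is a description of letters only.
Stra6: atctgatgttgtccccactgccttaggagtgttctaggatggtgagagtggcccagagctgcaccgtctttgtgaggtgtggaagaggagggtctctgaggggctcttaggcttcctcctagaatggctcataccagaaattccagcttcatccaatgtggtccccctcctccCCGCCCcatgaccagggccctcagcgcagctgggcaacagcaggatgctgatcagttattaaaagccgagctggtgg
Dhrs9: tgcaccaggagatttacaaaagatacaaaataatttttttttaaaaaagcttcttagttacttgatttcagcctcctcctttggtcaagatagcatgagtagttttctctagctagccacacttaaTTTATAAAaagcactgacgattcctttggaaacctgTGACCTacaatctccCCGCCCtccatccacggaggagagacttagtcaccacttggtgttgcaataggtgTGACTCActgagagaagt
Aldh1a1: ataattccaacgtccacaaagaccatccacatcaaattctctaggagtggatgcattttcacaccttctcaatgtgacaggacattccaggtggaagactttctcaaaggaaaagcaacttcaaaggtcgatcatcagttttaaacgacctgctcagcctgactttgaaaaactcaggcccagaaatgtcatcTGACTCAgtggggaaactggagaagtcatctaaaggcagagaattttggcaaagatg
Rbp4: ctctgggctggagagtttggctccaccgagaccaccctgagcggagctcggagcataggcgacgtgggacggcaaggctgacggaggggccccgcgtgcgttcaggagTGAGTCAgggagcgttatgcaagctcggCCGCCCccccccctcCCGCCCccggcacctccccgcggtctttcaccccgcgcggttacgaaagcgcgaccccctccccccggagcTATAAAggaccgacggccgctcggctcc

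The windows lie at chr9:58128838-58129087 (Stra6), chr2:69380212-69380461 (Dhrs9), chr19:20492333-20492582 (Aldh1a1) and chr19:38124812-38125061 (Rbp4, minus strand), and those of Stra6 and Rbp4 fall inside the annotated span of their genes. The Dhrs9 window held AGGTCA on the opposite strand from base 88 to base 83 before the start, a match also found in 13.8% of 27025 promoters, taken as 1 window per gene. It also held TGACTCA from base 18 to base 12 before the start, and a TATAAA match on each strand between bases 124 and 117, the pair overlapping. TGACTCA was present as well in the Aldh1a1 window, from base 57 to base 51, and on the opposite strand in the Rbp4 window, from base 142 to base 136, and 4.43% of all promoters held it. The Rbp4 window had TATAAA from base 28 to base 23 before the start, and 13.0% of promoters had this motif somewhere in the window. Its GC content was 70.8%, against 40.4% for Dhrs9, 42.8% for Aldh1a1, 56.4% for Stra6 and a median of 52.0% over all promoters.

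The table of promoters held 13 windows for 7 of the 9 genes, and Crabp2 and Aldh1a3 were not among them. Elsewhere in these windows AGGTCA was found before 1 start of Rarg, and GGGTCA before the other start of Rbp4 and the other start of Aldh1a1, with background shares of 13.8% and 11.5%. AGTTCA, present in 11.9% of promoters, was in none of the 13 windows. Direct repeats of 2 such half-sites, with GGTTCA allowed as a further variant, spaced by 1, 2 or 5 bases were in none of them either, and were in 0.159%, 0.178% and 0.0888% of all promoters. The Stra6 window held 1 GGGCGG match, on the opposite strand, a motif of 32.9% of promoters. The AP-1 letters TGACTCA were thus present in windows of a gene that was higher in lesions and of 2 genes that were lower. The other windows of Rbp4 and Aldh1a1 held no TGACTCA. That other Rbp4 window also held no TATAAA, and its GC content was 40.8%. The Rbp4 window shown belongs to start 2 of the listing, whereas the shares over all promoters took the first listed window of each gene.

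Rbp4 (chr19:38116629-38125281, minus strand, GRCm38), the gene of the retinol carrier, had the highest mean of the 9 genes in control skin, although Aldh1a1 was above it in control replicates 3 and 4. It was at 123, 67.1, 86.4 and 93.7 FPKM in control replicates 1 to 4. The IMQ + NS samples had 15.5, 21.1, 13.1 and 14.7 FPKM and the IMQ + BZLF samples had 25.7, 24.3, 31.2 and 33.2 FPKM. None of the 3 groups overlapped with another, and the order was control, IMQ + BZLF, IMQ + NS. On the log2(FPKM + 0.1) scale Rbp4 fell by 2.50 in IMQ + NS against control skin (SE 0.201, limma adjusted p = 2.5e-05). With the BZLF cover in place of saline it rose by 0.84 (SE 0.153, adjusted p = 0.0150), a ratio of means of 1.78, which is below the fold limit for a call. It remained 1.67 lower than in control skin on that scale (log2 difference -1.67, SE 0.183, adjusted p = 0.000213). The log2 differences from control were -2.65 in IMQ + NS and -1.81 in IMQ + BZLF skin without control replicate 2, which had the lowest Rbp4 of the control samples.

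Rbp4 is also a gene of liver and fat, and the summed level of 10 adipocyte markers was also highest in control skin, while the sums of the IMQ groups overlapped. It was 4069 to 9094 FPKM in control skin, 2009 to 3132 FPKM in IMQ + NS skin and 2709 to 3220 FPKM in IMQ + BZLF skin. Of the 10 markers 6 were called lower in IMQ + NS against control skin and limma called 0 between the IMQ groups, where 1 of the 10, Pck1, was higher at the adjusted p alone (log2 difference 0.84, adjusted p = 0.0134). Pck1 had its highest mean, 43.2 FPKM, in IMQ + BZLF skin, against 24.5 FPKM in IMQ + NS and 36.9 FPKM in control skin. Adipoq, at 84.8 to 130 FPKM in IMQ + NS and 131 to 146 FPKM in IMQ + BZLF skin, also did not overlap between these groups (log2 difference 0.41, adjusted p = 0.0799). The summed level of 9 liver markers was between 2.68 and 9.07 FPKM in all samples. Skeletal muscle markers, 8 genes, summed to 3553 to 8739 FPKM in control skin. Their sum was 647 to 1578 FPKM in IMQ + NS and 1146 to 1552 FPKM in IMQ + BZLF skin. All 8 were called lower in each IMQ group against control skin, and 1 was called higher in IMQ + BZLF against IMQ + NS skin. The part of fat cells, of muscle or of liver RNA in the Rbp4 difference was not tested.

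Stra6 (chr9:58063788-58153996, plus strand), the membrane receptor for retinol-loaded Rbp4, had the largest difference of the 9 genes. Control replicates 1 to 4 had 0.555, 1.19, 0.140 and 0.306 FPKM. In lesions with saline it was at 22.7, 17.4, 19.8 and 26.5 FPKM, and the IMQ + BZLF samples 43.1, 27.4, 26.3 and 23.1 FPKM. All 8 IMQ samples were above all control samples, while the IMQ groups overlapped with each other, and IMQ + BZLF replicate 1 was the highest sample. The log2 difference from control was 5.32 in IMQ + NS (SE 0.450, limma adjusted p = 3.34e-05) and 5.77 in IMQ + BZLF skin (SE 0.464, adjusted p = 4.05e-05). Between the IMQ groups it was 0.45 (95% interval 0.00 to 0.89, adjusted p = 0.215), so a difference in Stra6 between BZLF and saline covers did not pass the test. The constant of 0.1 FPKM understates folds this far down, and the ratio of group means was 39.5 for IMQ + NS and 54.7 for IMQ + BZLF against control.

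Without control replicate 2, which had the highest Stra6 of the control samples, the log2 difference of IMQ + NS from control was 5.74 (adjusted p = 2.61e-06) and that of IMQ + BZLF was 6.19 (adjusted p = 2.32e-06). The summed level of the hair shaft and root sheath markers was 11584 to 21256 FPKM in the 8 IMQ samples, and all 10 of these markers were called higher in each IMQ group against control skin. The part of hair follicles in the Stra6 difference was not tested. The Stra6 gene overlaps Ccdc33 on the opposite strand, which was at 0 to 0.0761 FPKM in all samples, and on its own strand the gene Gm16131, which was not analysed here.

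Crabp1 (chr9:54764748-54773110, plus strand), which binds retinoic acid in the cytosol, was highest in IMQ + NS lesions. Its level was 20.7, 25.6, 20.8 and 19.0 FPKM in control replicates 1 to 4. In IMQ + NS skin it was 30.7, 27.0, 53.6 and 47.0 FPKM, and in IMQ + BZLF skin 11.4, 14.8, 19.1 and 18.2 FPKM. The IMQ + NS samples were above every sample of the other groups, and the highest IMQ + BZLF sample was just above the lowest control sample. Crabp1 rose by 0.83 on the log2 scale in IMQ + NS against control skin (SE 0.218, limma adjusted p = 0.0116), and by 0.91 without control replicate 2 (adjusted p = 0.00809). It was called lower in IMQ + BZLF against IMQ + NS skin, with a log2 difference of -1.28 (SE 0.240, adjusted p = 0.0160), or 0.401 of the mean in IMQ + NS skin. This call was lost without IMQ + BZLF replicate 2 (adjusted p = 0.0571) or without IMQ + NS replicate 4 (adjusted p = 0.0510), with differences of -1.26 and -1.18. Against control skin the difference of -0.46 in IMQ + BZLF skin (adjusted p = 0.0488) passed the test only narrowly, and the adjusted p was 0.0816 without control replicate 2 (difference -0.37) and above 0.05 without each of the other control samples and without IMQ + BZLF replicates 1 or 2.

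The summed level of 10 neutrophil markers was 3138 to 9928 FPKM in the IMQ + NS samples, where Crabp1 was highest, against 38.6 to 57.8 FPKM in control and 65.0 to 86.5 FPKM in IMQ + BZLF samples. S100a8 and S100a9, which keratinocytes express too, carried most of that sum in IMQ + NS skin, with means of 3010 and 2909 FPKM. The neutrophil-restricted Ly6g was at 0.426 to 1.41 FPKM in IMQ + NS skin, at most 0.0273 FPKM in control skin and at most 0.443 FPKM in IMQ + BZLF skin. Cxcr2, a chemokine receptor of neutrophils, averaged 6.49 FPKM in IMQ + NS skin and was at most 1.09 FPKM in the other groups. Of the 10 markers 9 were called higher and 0 lower in IMQ + NS against control skin. All 10 were called lower in IMQ + BZLF against IMQ + NS skin, and against control skin 1 was called higher and 2 lower. Mmp9 overlapped between IMQ + NS (3.32 to 11.1 FPKM) and control skin (3.52 to 6.68 FPKM). Its mean was 1.13 FPKM in IMQ + BZLF and 5.44 FPKM in control skin. The part of neutrophils in the Crabp1 difference was not tested.

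Crabp2 (chr3:87948666-87953376, plus strand), the related protein that delivers retinoic acid to the nucleus, had the same order of IMQ + NS over the other groups. Control replicates 1 to 4 had 27.5, 25.8, 29.2 and 30.3 FPKM. Lesions with saline had 55.9, 53.6, 84.9 and 61.4 FPKM, and the IMQ + BZLF samples 33.9, 52.1, 34.5 and 36.3 FPKM. The 3 groups did not overlap, with IMQ + BZLF between the others and its replicate 2 close below the lowest IMQ + NS sample. The rise in IMQ + NS against control skin was 1.16 on the log2 scale (SE 0.142, limma adjusted p = 0.000233), and it was called without any 1 of the 8 samples. Crabp2 in IMQ + BZLF against IMQ + NS skin fell by 0.70 (SE 0.174, adjusted p = 0.0469), a value that leaving out 1 sample moved to between 0.0335 and 0.115. It passed only when IMQ + BZLF replicate 2 was left out, and was above 0.05 without any other 1 of the 8 samples. Against control skin the difference of 0.45 in IMQ + BZLF skin passed the test (adjusted p = 0.0244), though not without control replicate 1 (adjusted p = 0.0590) nor after rescaling the samples to equal sums (adjusted p = 0.0654). With control replicate 2 left out the differences from control were 1.12 in IMQ + NS and 0.41 in IMQ + BZLF skin (adjusted p = 0.000279 and 0.0358). Basal keratinocyte markers, 7 genes, summed to 1361 to 1833 FPKM in control skin, 3387 to 5476 FPKM in IMQ + NS skin and 1684 to 2362 FPKM in IMQ + BZLF skin. Krt5 and Krt14 carried most of the sum in IMQ + NS skin, with means of 1652 and 2100 FPKM. Of the 7 markers 3 were called higher in IMQ + NS against control skin, and 5 were higher and 1 lower at the adjusted p alone, the latter being Krt15 (log2 difference -0.83, adjusted p = 0.000679). With BZLF in place of saline 1 was called lower, and 5 were lower by the adjusted p. The part of basal keratinocytes in the Crabp2 difference was not tested.

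Dhrs9 (chr2:69380445-69404533, plus strand), a short-chain dehydrogenase that oxidizes retinol, rose in both kinds of lesion. Control replicates 1 to 4 were at 0.817, 1.84, 0.799 and 0.476 FPKM. Lesions with saline were at 11.3, 9.71, 13.3 and 12.2 FPKM and the IMQ + BZLF samples at 11.1, 10.8, 10.8 and 9.91 FPKM. The IMQ groups overlapped, and both were above every control sample. The log2 difference from control was 3.57 in IMQ + NS (SE 0.323, limma adjusted p = 4.73e-05) and 3.45 in IMQ + BZLF skin (SE 0.315, adjusted p = 8.49e-05). Between the IMQ groups it was -0.12 (95% interval -0.33 to 0.09, adjusted p = 0.491), in size the smallest difference of the 9 genes in that comparison, and the interval lies within a fold of 2. Without control replicate 2, the highest of the control samples, the differences from control were 3.90 in IMQ + NS and 3.78 in IMQ + BZLF skin.

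Aldh1a1 (chr19:20492715-20643465, plus strand), which makes retinoic acid from retinaldehyde, had the largest fall of the 9 genes. It was at 58.6, 30.0, 87.4 and 95.3 FPKM in control replicates 1 to 4. Its level was 5.59, 9.21, 4.10 and 3.85 FPKM in the IMQ + NS samples and 11.4, 15.6, 17.2 and 11.9 FPKM in the IMQ + BZLF samples. The 3 groups did not overlap, and the order was that of Rbp4, with IMQ + BZLF between control and IMQ + NS skin. The log2 difference of IMQ + NS from control skin was -3.51 (SE 0.398, limma adjusted p = 0.000154), and it was -3.86 without control replicate 2. IMQ + BZLF skin was also called lower than control skin, by a log2 difference of -2.15 (SE 0.341, adjusted p = 0.00111), which was -2.50 without that sample.

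Aldh1a1 in IMQ + BZLF against IMQ + NS skin was called higher, with a log2 difference of 1.36 (SE 0.262, limma adjusted p = 0.0185) and a ratio of means of 2.47. The call rested on single samples. Its adjusted p was 0.0659 when replicate 2 of IMQ + BZLF was left out and 0.0532 when its replicate 3 was. Leaving out replicate 3 or 4 of IMQ + NS gave 0.0549 and 0.0513, and over these 4 fits the log2 difference was 1.20 to 1.30. The call was also lost with no filter on low values (adjusted p = 0.0514) and with all 12 samples in one fit (adjusted p = 0.0536). Dermal fibroblast markers, 10 genes, summed to 13865 to 19745 FPKM in control skin, 4013 to 5269 FPKM in IMQ + NS skin and 4603 to 8588 FPKM in IMQ + BZLF skin. The collagen genes Col1a1, Col1a2 and Col3a1 carried most of this sum. Of the 10 markers 8 were called lower in each IMQ group against control skin. Between the IMQ groups limma called 0 of the 10, 1 was higher at the adjusted p alone (Dpt, log2 difference 0.75, adjusted p = 0.0296), and the means of Pdgfra, Fbln1 and Pi16 were 14.5, 13.3 and 68.9 FPKM in IMQ + BZLF against 15.3, 14.6 and 76.1 FPKM in IMQ + NS skin. The part of fibroblasts in the Aldh1a1 differences was not tested. Of the sequence words of 50 bases in the Aldh1a1 transcripts, 3.06% also occur in the paralog Aldh1a7, so reads there could be counted for either gene. The gene also overlaps C730002L08Rik and Gm6684 on the opposite strand, which were not analysed here.

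Aldh1a3 (chr7:66390890-66427517, minus strand), the other Aldh1a enzyme among the 9 genes, showed no difference that passed the test. Control replicates 1 to 4 had 13.5, 7.23, 11.3 and 4.81 FPKM. Replicates 1 to 4 of IMQ + NS had 10.2, 10.4, 11.2 and 12.1 FPKM, and the IMQ + BZLF samples 18.1, 11.2, 12.7 and 14.3 FPKM. The groups overlapped in all 3 comparisons, and the control samples had the widest spread of the 3 groups relative to their mean. The log2 difference was 0.36 for IMQ + NS against control (95% interval -0.29 to 1.0, limma adjusted p = 0.311), 0.34 for IMQ + BZLF against IMQ + NS (0.04 to 0.64, adjusted p = 0.172) and 0.69 for IMQ + BZLF against control (0.00 to 1.39, adjusted p = 0.0838). The last passed the test without control replicate 1, with a difference of 0.91 (adjusted p = 0.0352), and with all 12 samples in one fit (adjusted p = 0.0395). Without control replicate 2 the differences from control were 0.28 in IMQ + NS and 0.62 in IMQ + BZLF skin (adjusted p = 0.452 and 0.133).

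Cyp26b1 (chr6:84571414-84593908, minus strand), which breaks down retinoic acid, was lower only in IMQ + BZLF against control skin by this test. Its level was 6.61, 6.58, 8.81 and 9.32 FPKM in control replicates 1 to 4. IMQ + NS skin had 5.40, 4.99, 7.21 and 6.28 FPKM, and IMQ + BZLF skin 2.80, 4.43, 4.47 and 6.34 FPKM. Neighbouring groups in the order control, IMQ + NS, IMQ + BZLF overlapped, and control and IMQ + BZLF did not. Cyp26b1 fell by 0.82 on the log2 scale in IMQ + BZLF against control skin (SE 0.237, limma adjusted p = 0.0182), and the adjusted p was 0.0510 without control replicate 3 and 0.0514 without control replicate 4. It was 0.0128 without control replicate 2, with a difference of -0.90. Without IMQ + BZLF replicate 4 the difference was -1.0 and the gene was called. For IMQ + NS against control the difference was -0.38 (adjusted p = 0.0728), and it passed without control replicate 2 (difference -0.46, adjusted p = 0.0334), without IMQ + NS replicate 3 (adjusted p = 0.0450) and with the samples rescaled to equal sums (adjusted p = 0.0235) or quantile normalized (adjusted p = 0.0394). Between the IMQ groups it was -0.44 (95% interval -0.94 to 0.06, adjusted p = 0.277).

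Rarg (chr15:102234938-102257517, minus strand), the nuclear receptor, rose by less than 2-fold in both IMQ groups. Control replicates 1 to 4 had 37.2, 47.8, 40.1 and 39.9 FPKM. The IMQ + NS samples had 58.7, 55.7, 49.1 and 55.8 FPKM, and the IMQ + BZLF samples 66.4, 56.5, 59.0 and 57.5 FPKM. Every IMQ sample was above every control sample, and the IMQ groups overlapped. The log2 difference from control was 0.41 in IMQ + NS (SE 0.095, limma adjusted p = 0.00603) and 0.54 in IMQ + BZLF skin (SE 0.095, adjusted p = 0.00189). Between the IMQ groups it was 0.13 (95% interval -0.04 to 0.29, adjusted p = 0.342). With samples rescaled to equal sums the IMQ + NS difference was 0.28 and its adjusted p 0.0510. Without control replicate 2, the highest of the control samples, the differences from control were 0.48 in IMQ + NS and 0.61 in IMQ + BZLF skin (adjusted p = 0.000431 and 0.000146).

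**Figure D2:**
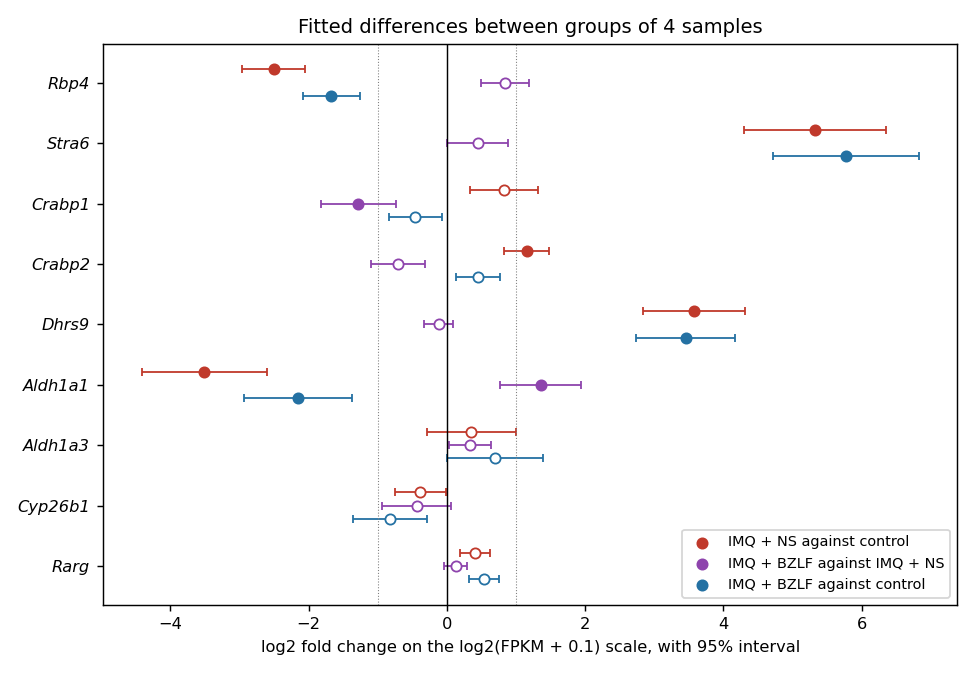
Fitted log2 fold change of each of the 9 genes on the log2(FPKM + 0.1) scale (horizontal axis) with 95% intervals, for the 3 comparisons in separate colours. Filled points passed both the adjusted p and the fold limit of 2 (dotted lines), open points did not. Stra6, Dhrs9, Aldh1a1 and Rbp4 lie far from 0 in both comparisons with control skin, and only Aldh1a1 (1.36) and Crabp1 (-1.28) are filled in IMQ + BZLF against IMQ + NS.

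A two-sided exact permutation test of each gene over the 70 ways to split 8 samples into groups of 4 gave the smallest p it allows, 0.0286, wherever the groups did not overlap. It was 0.0571 for Crabp1 in IMQ + BZLF against control skin and for Aldh1a3 in IMQ + BZLF against IMQ + NS skin, and 0.0857 for Stra6 in the latter. These were among 27 such tests, and the labels do not say whether the 4 samples of a group came from separate mice, so the p-values measure the spread between these samples, which may be technical.

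The make-up of the gene families, compared after the values had been seen, is given as a share of the summed FPKM of the family, a measure per transcript length. Aldh1a1 was 74.6% ± 10.8 of Aldh1a1, Aldh1a2, Aldh1a3 and Aldh1a7 in control skin, 26.1% ± 7.53 in IMQ + NS skin and 40.8% ± 7.15 in IMQ + BZLF skin (SD, n = 4 each). The control samples, at 62.7% to 86.3%, were above all IMQ samples, and the IMQ groups overlapped. The difference of IMQ + NS from control was -48.5 percentage points (two-sided exact permutation p = 0.0286, the smallest possible, Benjamini-Hochberg adjusted over 12 share tests 0.0857), and IMQ + BZLF against IMQ + NS differed by 14.6 points (exact p = 0.0571, adjusted 0.114). Leaving out 1 sample kept the latter between 12.3 and 17.8 points. The difference of IMQ + NS from control was -52.5 points without control replicate 2. Aldh1a7 itself fell by 1.39 on the log2 scale in IMQ + NS against control skin (limma adjusted p = 0.000858), and Aldh1a2 was at most 1.13 FPKM in any sample.

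Crabp1 made up 43.2% ± 4.72 of the 2 Crabp genes in control skin, 37.8% ± 4.32 in IMQ + NS skin and 29.1% ± 6.49 in IMQ + BZLF skin. The only pair of groups without overlap was IMQ + BZLF and control, with a difference of -14.1 points (exact permutation p = 0.0286, adjusted 0.0857), or -12.0 points without control replicate 2. Rarg was 81.3% ± 3.33 of the retinoic acid receptors Rara, Rarb and Rarg in control skin, 85.5% ± 1.16 in IMQ + NS skin and 87.8% ± 1.69 in IMQ + BZLF skin, and here too only IMQ + BZLF and control did not overlap (difference 6.50 points, exact permutation p = 0.0286, adjusted 0.0857, and 5.13 points without control replicate 2). Cyp26b1 was 97.3% to 100% of the 3 Cyp26 genes in every sample, and Cyp26a1 and Cyp26c1 were at most 0.177 FPKM.

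**Figure D3:**
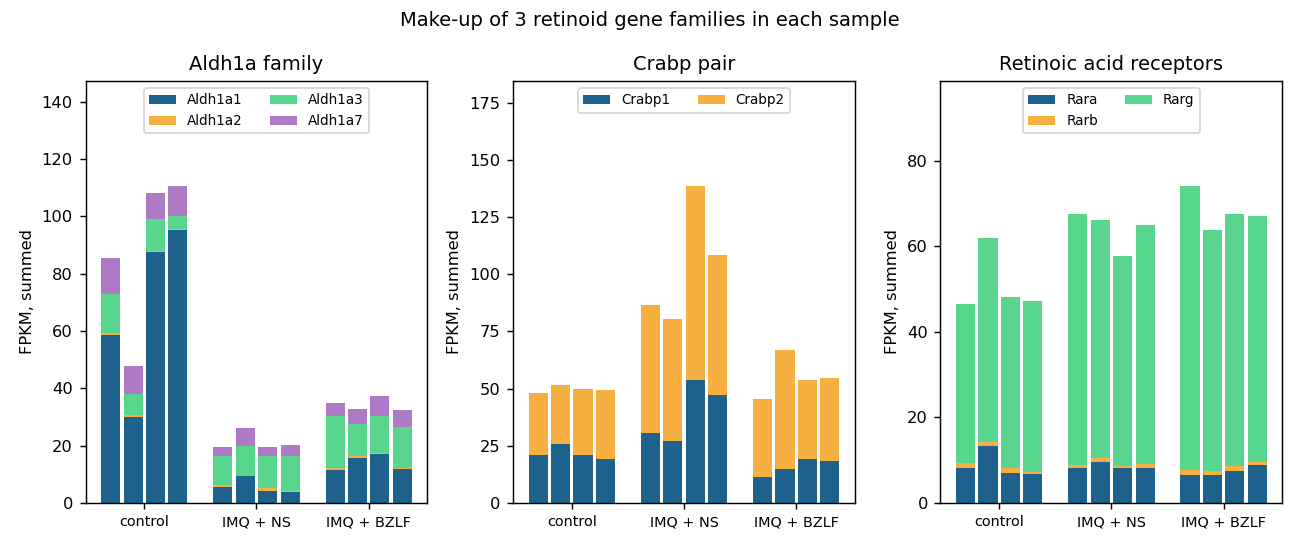
Summed FPKM of the members of 3 retinoid gene families in each of the 12 samples (stacked bars, 4 bars per group, vertical axes starting at 0). The Aldh1a1 portion makes up 62.7% to 86.3% of the bars of control skin and is smaller in both IMQ groups, and Rarg makes up most of each receptor bar.

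The rest of the pathway was read from a list of 58 other genes of retinoid transport, esterification, oxidation, breakdown and response, of which 56 were in the table and 42 were tested. In IMQ + NS against control skin 6 of the 42 were called higher and 12 lower, and 10 and 21 passed the adjusted p, against the 11.4% and 11.0% of all genes called and the 29.0% and 27.1% past the adjusted p. Leaving out control replicate 2 gave 7 called higher and 13 lower. The median log2 difference of the 42 was -0.36, against 0.053 over all genes tested. Among the binding proteins, the cellular retinol-binding protein Rbp2 (log2 difference 3.75, limma adjusted p = 1.87e-05) and Fabp5 (2.23, adjusted p = 3.61e-06), which can carry retinoic acid to another nuclear receptor, were called higher. Rbp7 fell by 0.69 (adjusted p = 0.0189). Lrat, which esterifies retinol for storage, rose by 2.47 (adjusted p = 0.000128) and Cyp2s1, a cytochrome P450 able to metabolize retinoic acid, rose by 2.70 (adjusted p = 0.00155).

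Genes of ester turnover and of retinol or retinaldehyde oxidation made up 10 of the 12 that were called lower, and 26 of the 42 genes tested. Of 7 tested genes of ester formation or hydrolysis 4 were called lower, among them the wax and retinol acyltransferase Awat2 (log2 difference -2.92, limma adjusted p = 0.000251) and the carboxylesterases Ces1d (-2.62, adjusted p = 0.000112) and Ces1f (-2.40, adjusted p = 0.000900). Of 16 tested genes that oxidize retinol or reduce retinaldehyde 4 were called lower and 0 higher, while 3 and 9 passed the adjusted p in the higher and lower direction. Over all genes tested 11.0% were called lower and 11.4% higher, and 29.0% and 27.1% passed the adjusted p in the higher and lower direction. Aox1, an aldehyde oxidase, fell by 2.04 (adjusted p = 0.000515) and Rxrg, a partner receptor, fell by 2.32 (adjusted p = 1.69e-05). Awat2 is also 1 of 10 markers of the sebaceous gland. Of the other 9 markers 4 were called lower in this comparison, and at the adjusted p alone 5 were lower and 2 higher, Elovl3 (0.93, adjusted p = 0.00511) and Soat1 (0.51, adjusted p = 0.0178). Lipe, also on the pathway list, is 1 of 10 adipocyte markers. Of the other 9 adipocyte markers 6 were called lower and 0 higher in this comparison. The part of the glands or of fat cells was not tested.

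In IMQ + BZLF against IMQ + NS skin 1 of the 42 genes was called, Rbp2, which was lower by a log2 difference of -1.74 (SE 0.28, limma adjusted p = 0.00938), with means of 13.1 and 42.3 FPKM, where 2.52% of all genes were called. At the adjusted p alone 4 were higher and 4 lower, against 1.28% and 5.17% of all genes, and the median log2 difference was -0.044, against -0.023 over all genes tested. Named after their values were seen, the other 3 that fell were Fabp5 (-0.86), Ppard (-0.56) and Rxra (-0.18), and the 4 that rose were Rbp7 (0.99), Ces1f (0.77), Ces1d (0.74) and Dhrs3 (0.34). In IMQ + BZLF against control skin 6 of the 42 were called higher and 7 lower, where 9.65% and 10.1% of all genes were called, and 6 and 9 without control replicate 2. Among the largest of these in each direction were Cyp2s1 (2.76), Rbp2 (2.01), Lrat (1.88) and Fabp5 (1.37), and Rxrg (-2.38), Awat2 (-2.13), Aox1 (-1.96), Ces1d (-1.88) and Ces1f (-1.63).

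**Figure D4:**
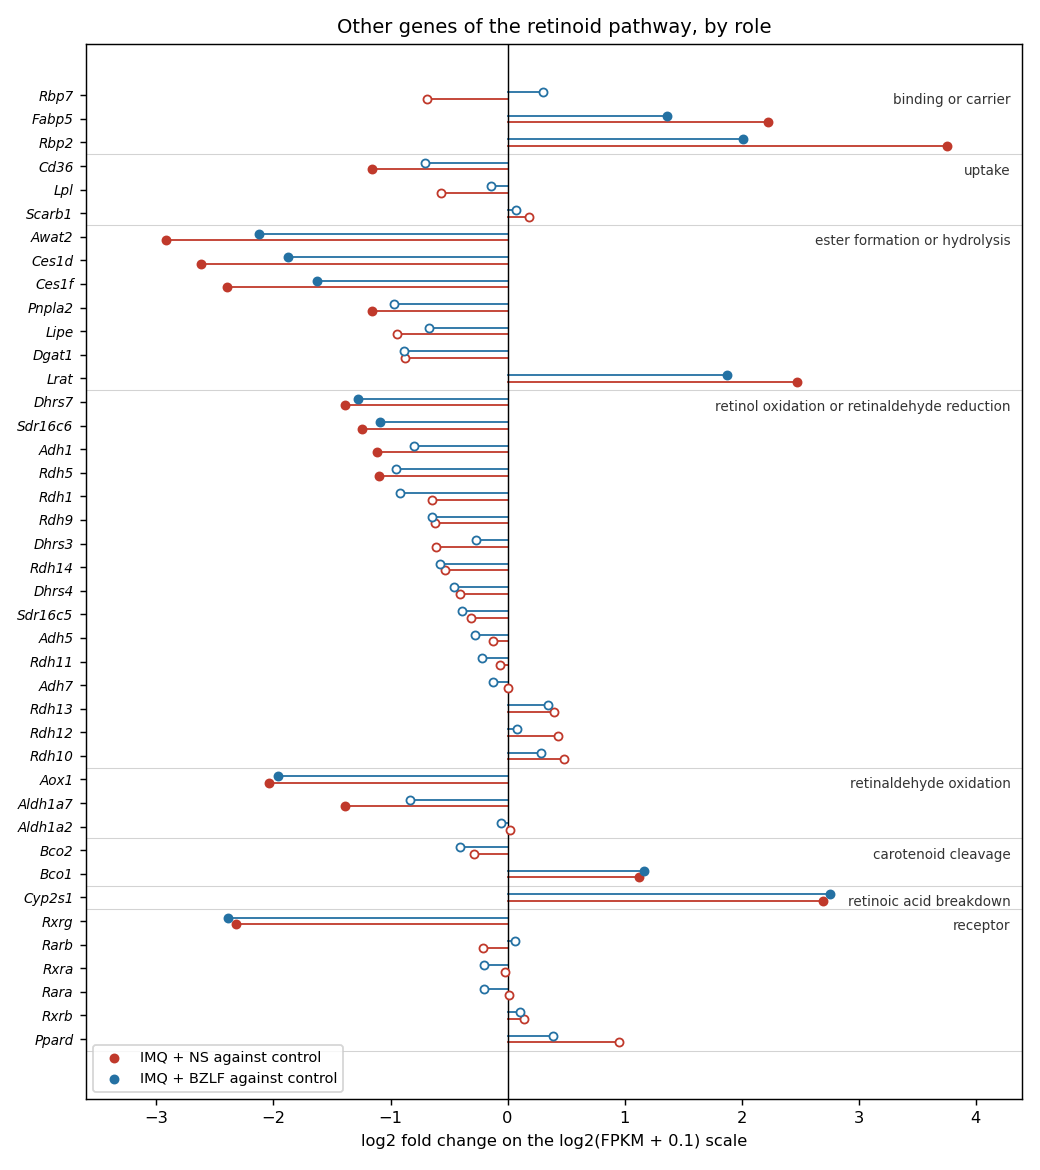
Log2 fold change on the log2(FPKM + 0.1) scale (horizontal axis) of 41 of the 42 tested genes of the retinoid pathway other than the 9, grouped by role, in IMQ + NS and IMQ + BZLF skin against control skin. Filled points were called. Rbp2, Lrat and Cyp2s1 are far to the right in both, and Awat2, Ces1d, Ces1f, Rxrg and Aox1 far to the left.

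Among 17 genes known to be induced by retinoic acid, 15 were tested. In IMQ + NS against control skin 4 were called higher, among them Lrat, the actin-associated Rai14 (log2 difference 1.21, limma adjusted p = 0.00114) and the growth factor Hbegf (1.01, adjusted p = 0.0207), and 3 lower, Rarres1 (-2.77, adjusted p = 5.97e-05), the transglutaminase Tgm2 (-1.26, adjusted p = 0.000216) and the chemoattractant Rarres2 (-1.15, adjusted p = 0.00555). Over all genes 11.4% were called higher and 11.0% lower. The median log2 difference of the 15 was -0.028, against 0.053 over all genes tested, and without control replicate 2 the called genes were 3 higher and 3 lower. In IMQ + BZLF against IMQ + NS skin limma called 0 of the 15 in either direction, against 0.321% of all genes higher and 2.20% lower, and at the adjusted p alone Dhrs3 rose and Hbegf fell (-0.80). In IMQ + BZLF against control skin 3 were called higher, among them Lrat and Rai14, and 4 lower, Rarres1, Rarres2, Tgm2 and the homeobox gene Hoxa4, where 9.65% and 10.1% of all genes were called, and without control replicate 2 these counts were again 3 and 4. The median was 0.065, against -0.018 over all genes tested. This list and the list of pathway genes share some genes, among them Rarb, Dhrs3, Lrat and Cyp26a1.

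Over the 12 samples the genes closest to each retinoid gene, by Pearson's r of log2(FPKM + 0.1) among 12656 other genes with a mean of at least 1 FPKM, were as follows. Stra6 was closest to Gm3285 and Capn12, each with r = 0.997, and Dhrs9 to Krtap9-1 (0.997) and Ston2 (0.996). Rbp4 was closest to Lrrc39 and Gbe1 (each 0.992) and Aldh1a1 to Ppp1r14a (0.987) and Camk2n1 (0.985). Crabp1 was closest to Mcemp1 (0.965) and Fpr2 (0.960), and Crabp2 to Ctsd (0.973) and the basal keratin gene Krt5 (0.968). Rarg was closest to Zfp46 (0.989) and Cldn8 (0.986), Cyp26b1 to Map3k14 (0.957) and Ahr (0.934), and Aldh1a3 to Efhd1 (0.880) and Faap20 (0.854). Within the 9 genes the highest values were 0.981 for Stra6 and Dhrs9 and 0.962 for Rbp4 and Aldh1a1. These values describe 12 points that fall into 3 groups and share their libraries.

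**Figure D5:**
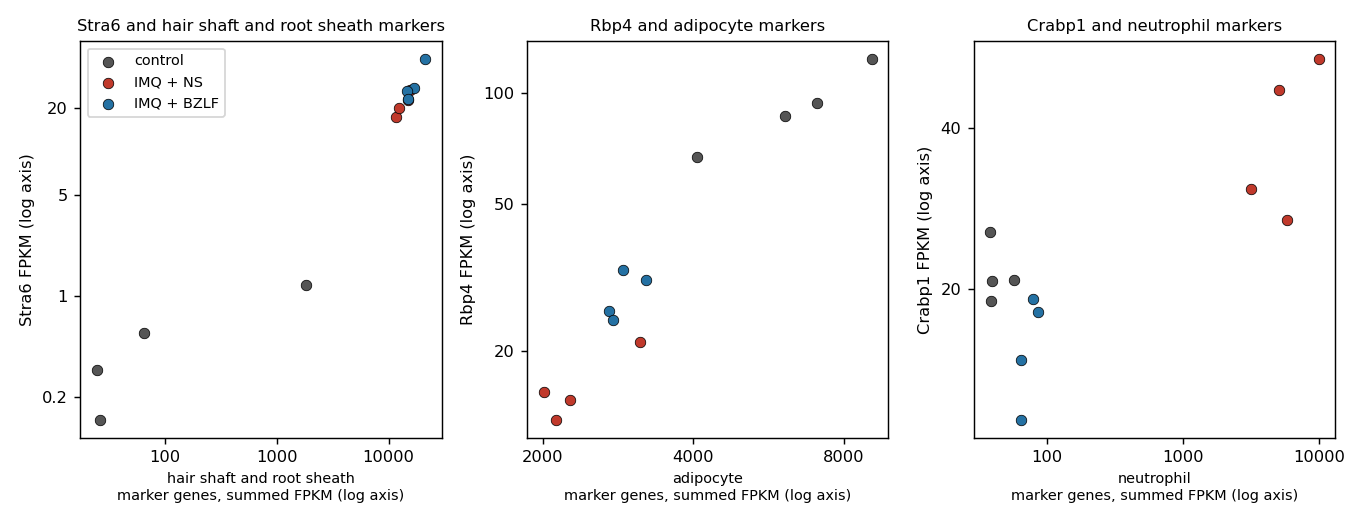
FPKM of Stra6, Rbp4 and Crabp1 (vertical log axes) against the summed FPKM of a marker list (horizontal log axes) in the 12 samples, coloured by group. The 8 IMQ samples stand together at 11584 to 21256 FPKM of hair markers, with control replicate 2 at 1840 FPKM between them and the other control samples, and the IMQ + NS samples alone lie at 3138 FPKM or more of neutrophil markers.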

How the data were processed

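The 12 samples were back skin RNA-seq libraries, 4 each of control, IMQ + NS and IMQ + BZLF. The authors deposited 1 table of FPKM values, not on a log scale and not pooled over replicates. The sources differ on how it was made. The methods of the study name Bowtie2 alignment to transcripts with eXpress quantification, and the submitters' processing notes name fastp, HISAT2, HTSeq, R 3.2.0 and mm10. The RNA extraction and library kits named there also differ, so whether counting used strand is unclear. Every column belonged to a sample, and 0 columns were left unmapped.

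Genes with a mean of at least 0.1 FPKM over the 12 samples were tested on log2(FPKM + 0.1) with limma 3.58.1 (R 4.3.3, trend on mean expression), in a separate fit for each pair of groups, with Benjamini-Hochberg adjustment over the 15288 genes. The constant understates fold changes of genes at low FPKM. Fits were tested on simulated data. Shares, exact permutation tests and promoter searches used Python 3.11.15 with scipy 1.17.1. Positions came from GENCODE annotation of GRCm38 and promoters from RefSeq. The 9 genes and all lists were chosen with earlier results of these data known. Every one of the 9 is described, and of the other pathway genes and the retinoic acid-induced genes up to 5 called genes with the largest change in each direction and comparison are named, with the 2 genes most like each of the 9. Exceptions are marked, and the values of 1 gene that the rule names are not reported here. Alternatives changed the constant, filter, scaling, variance model, samples in the fit, thresholds, replicate block and left out each sample.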

Additional observations from a re-analysis of the deposited data

Results flagged for a closer look

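Crabp2 in IMQ + BZLF replicate 2, at 52.1 FPKM, lay far from the other 3 samples of its group, which were between 33.9 and 36.3 FPKM. Its gap to the nearest sample was 0.868 of the range of the group, above Dixon's limit for 4 samples. It was the only 1 of 27 groups of 4 checked that passed the limit, which chance passes in about 1 of 20 groups. Without it, Crabp2 in IMQ + BZLF against IMQ + NS skin differed by -0.85 on the log2 scale (limma adjusted p = 0.0335).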

How the results depend on the processing

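Of 567 log2 differences of the 9 genes recomputed under other settings, 0 reversed, 550 kept their direction and their side of the calling rule, 8 lost a call and 9 gained one, 8 of the latter because the limit on the fold change was dropped. Without the fold limit, the genes counted as higher and lower were 5 and 2 of the 9 in IMQ + NS against control, 2 and 2 in IMQ + BZLF against IMQ + NS, and 4 and 4 in IMQ + BZLF against control. For the other pathway genes this setting gave 10 higher and 21 lower, 4 and 4, and 8 higher and 20 lower, and for the retinoic acid-induced genes 1 higher and 1 lower in IMQ + BZLF against IMQ + NS. In that comparison 0 of the 9 were called higher with no filter on low values, where 18505 genes were tested, or with all 12 samples in one fit, and the cause of the latter was not tested. In the same comparison 1 other pathway gene was called higher with 0.01 added before the logarithm, with median ratio scaling, with equal sums and with quantile normalization, against 0 as reported, and the cause was not tested. Leaving out 1 sample in turn gave 0 to 1 of the 9 called higher and 0 to 1 called lower there, 0 to 2 other pathway genes called higher and 0 to 1 retinoic acid-induced genes called higher. Rescaling to equal sums moved the median log2 difference over all genes in IMQ + NS against control from 0.053 to -0.073 and quantile normalization moved it to -0.071. The labels do not say whether replicate numbers pair the samples. Correlations of deviations from the group means between samples of the same number ranged from -0.15 to 0.26. No reference was computed for them, so pairing remains unsettled. The sum of 6 seminal vesicle genes was 39.4 FPKM in control replicate 2 and 38.2 FPKM in IMQ + BZLF replicate 2. All other samples had at most 0.0441 FPKM. The sum of 6 kidney genes was 5.50 FPKM in control replicate 1 and 3.98 FPKM in IMQ + BZLF replicate 1. It was at most 0.110 FPKM elsewhere, and the cause was not tested. With a replicate block the calls of the 9 genes stayed at 3 higher and 2 lower, 1 and 1, and 2 and 2, while at the adjusted p alone Crabp2 in IMQ + BZLF against IMQ + NS (0.0786) and against control (0.0565) and Crabp1 in IMQ + BZLF against control (0.0749) no longer passed and Cyp26b1 in IMQ + NS against control (0.0301) did. Crabp1 in IMQ + BZLF against control also did not pass with no filter, with all 12 samples in one fit or without a variance trend (0.0610 to 0.0964), nor did Crabp2 in IMQ + BZLF against IMQ + NS with no filter, no trend or the 3 other scalings (0.0545 to 0.0946). Read depth per value is unknown, so low FPKM such as those of Stra6 in control skin carry a counting error that cannot be given.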
